A study of Mus musculus with 8 samples.

Results

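The Gimap genes encode GTPases of the immunity-associated protein family, small GTP-binding proteins made mostly by lymphocytes. Their 8 mouse members (Gimap1, Gimap3, Gimap4, Gimap5, Gimap6, Gimap7, Gimap8 and Gimap9) were chosen by symbol, and all 8 were among the 48321 symbols listed in each count table. RNA had been sequenced from splenic CD8+ T cells of C57BL/6 mice in 8 libraries, with 2 libraries in each of 4 groups: WT and KO before culture (day 0) and WT and KO after 5 days in culture. According to the series, the mice carried floxed Satb1 alleles (F/F) and E8I-cre, a recombinase driven by an enhancer of the Cd8a locus that is active in mature CD8 lineage cells. The labels give the genotype as WT or KO only, so whether the WT animals carried the floxed alleles or the transgene is not given in the sources used here, nor are the age of the mice, the number of animals behind a library or the agents added to the culture, which the series title calls a stimulation. P-values below measure the spread between libraries, since nothing states that the 2 libraries of a group came from separate animals.

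GIMAP proteins bind GTP through a nucleotide-binding domain, and several members sit on membranes of lysosomes, the endoplasmic reticulum or the Golgi apparatus. They are best known for the survival of resting lymphocytes: loss of Gimap5 in mice and rats causes lymphopenia, and loss of Gimap1 depletes mature T and B cells. GIMAP6 binds the autophagy protein GABARAPL2, and GIMAP4 has been tied to the pace of T-cell death. In mouse the genes lie side by side on chromosome 6, between 48647234 and 48770851 (GRCm38), a stretch of 123.6 kb, in the order Gimap8, Gimap9, Gimap4, Gimap6, Gimap7, Gimap1, Gimap5 and Gimap3. Gimap6 and Gimap3 are on the minus strand and the other 6 on the plus strand.

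The family shares the phosphate-binding loop (P-loop) of GTPases, which grips the phosphates of the nucleotide. The coding bases around this loop are shown for the pair of near-identical paralogues, Gimap3 and Gimap5, whose reads are hardest to tell apart, and for Gimap6 and Gimap7, neighbours whose RNA moved in opposite directions in culture. They were read from GENCODE M21 transcripts (GRCm38), 5′ to 3′ on the coding strand, and capitals mark the 24 bases of the loop, found as an in-frame glycine codon, 4 codons of any kind, a glycine codon, a lysine codon and a serine or threonine codon:
Gimap3: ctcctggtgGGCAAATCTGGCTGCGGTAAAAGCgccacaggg
Gimap5: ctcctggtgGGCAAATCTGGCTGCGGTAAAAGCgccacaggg
Gimap6: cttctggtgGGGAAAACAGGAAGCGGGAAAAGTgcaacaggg
Gimap7: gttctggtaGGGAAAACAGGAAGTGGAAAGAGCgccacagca
The loops of Gimap3 and Gimap5 had 0 differing bases of 24, and those of Gimap6 and Gimap7 had 4. Over the whole coding sequence, Gimap3 and Gimap5 were identical at 811 of 898 aligned bases, or 90.31%, while the next most alike pair, Gimap7 and Gimap9, was identical at 66.71% and the least alike, Gimap1 and Gimap9, at 55.9%. Gimap8 is the long member, with 2067 coding bases and 3 such loops against 876 to 987 coding bases and 1 loop in each of the others. At the read length of 50 bases, 7.52% of the 50-base windows of Gimap3 and 4.53% of those of Gimap5 also occurred in another member, and none did for the other 6 genes, so reads of these windows could not be assigned to 1 gene and counts of both are uncertain. Gimap3 was by far the more abundant of the pair, so the uncertainty of Gimap5 is not limited to its own share of such windows.

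The promoters are shown for Gimap6 and Gimap7, neighbours in the cluster whose RNA moved in opposite directions in culture. Each window holds 250 bases before to 50 bases after the start site, 5′ to 3′ on the strand of the gene, from RefSeq (GRCm38.p6); capitals mark CGGAAG, a core of ETS factor sites, and TGTGGT, a core of RUNX sites, on either strand:
Gimap6, chr6:48708195-48708494, minus strand: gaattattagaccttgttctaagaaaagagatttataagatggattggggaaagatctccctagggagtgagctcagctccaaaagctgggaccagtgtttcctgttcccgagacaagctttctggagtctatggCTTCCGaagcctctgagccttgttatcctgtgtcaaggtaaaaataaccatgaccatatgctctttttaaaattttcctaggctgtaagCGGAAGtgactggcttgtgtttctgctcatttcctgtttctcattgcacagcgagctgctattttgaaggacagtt
Gimap7, chr6:48718371-48718670, plus strand: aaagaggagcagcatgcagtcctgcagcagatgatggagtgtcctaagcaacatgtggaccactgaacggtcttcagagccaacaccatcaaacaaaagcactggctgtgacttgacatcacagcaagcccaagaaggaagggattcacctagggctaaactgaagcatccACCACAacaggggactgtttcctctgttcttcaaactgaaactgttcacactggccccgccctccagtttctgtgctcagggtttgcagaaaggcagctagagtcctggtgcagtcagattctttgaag
Gimap6 had 2 matches to CGGAAG and none to TGTGGT, and Gimap7 had 1 match to TGTGGT and none to CGGAAG. Over the 9 promoter windows that matched the 8 members (Gimap8 has 2, which overlap), CGGAAG occurred in 4 (those of Gimap6 and Gimap1 and both of Gimap8, which hold the same site, so 3 of the 8 genes) and in 16.9% of all 32851 windows. TGTGGT occurred in 3 (Gimap4, Gimap7 and Gimap1) and in 16.8% of all windows. TGTTTAC, a FOXO core, occurred in Gimap3 alone (3.65% of all), CTTTGAA, a TCF and LEF core, in Gimap7 alone (5.14%), TATAAA in Gimap6 alone (13.6%), and GGGCGG, the GC box, in Gimap9 and Gimap7 (35.7%). No window held TGANTCA of AP-1 (7.81% of all) or CACGTG of Myc (7.15%). Both strands were searched in each case, and no match in a member overlapped that of another motif.

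Library totals ranged from 4170126 to 11117971 counts, and the Gimap members together held 0.622% to 1.02% of them, with no member below 193 counts in any library. Levels are given as CPM, the count of a gene scaled to library size, with library sizes adjusted by the trimmed mean of M-values (TMM). Satb1, the targeted gene, had 97.4 and 91.2 CPM in WT and 144 and 124 CPM in KO at day 0, and 96.2 and 116 CPM in WT and 56.4 and 62.1 CPM in KO at day 5, so its level ran against the label at day 0 and KO is used below for the libraries labelled KO. The 6 markers of CD8 T cells, all tested, summed to between 9848 and 11055 CPM at day 0 and between 6391 and 7441 CPM at day 5. Of the markers of other cells, Cd4 had 0 to 7 counts and Cd40lg 1 to 66 counts (means of 1.36 CPM in WT and 4.74 CPM in KO at day 0), Ms4a1 and Pax5 had 0 to 5 counts, Ebf1 0 to 8 and Cd79a 0 to 20 counts, and the defining endothelial markers Cdh5, Kdr, Tek and Emcn 0 to 4 counts. The 9 myeloid markers summed to between 10.3 and 19.1 CPM at day 0 and between 4.05 and 5.85 CPM at day 5. The endothelial list (5 genes, 284 to 392 CPM at day 0 and 91.1 to 102 CPM at day 5) consisted almost wholly of Pecam1, and the B-cell marker Cd79b had group means of 120 and 152 CPM at day 0 and 67.5 and 81.2 CPM at day 5. The dendritic, NK, erythroid, platelet and CD4 T-cell lists each summed to at most 14.2 CPM in any library. The CD8 T-cell, myeloid, dendritic and endothelial sums were lower in every day 5 library than in any day 0 library, as most Gimap members were, and their part in the results was not tested. Within the CD8 T-cell list, Cd8b1 had group means of 3843 and 3376 CPM at day 0 and 1236 and 1318 CPM at day 5 (WT and KO), while Cd3d had 1542 and 1421 CPM and then 1571 and 1459 CPM, and Thy1 had 425 and 380 CPM and then 339 and 547 CPM. Cd8a had 1424 and 1374 CPM at day 0 and 781 and 1187 CPM at day 5. The edgeR test used below called it higher in KO at day 5, a call lost under 3 of 18 alternative settings.

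The first question was how abundant the members were. At day 0 Gimap6, Gimap3 and Gimap4 were among the 40 genes with the most counts in both genotypes, and the 8 members summed to 8876 ± 187 CPM (SD, n = 2) in WT and 9549 ± 267 CPM in KO. After culture the sums were 7104 ± 590 CPM in WT and 7256 ± 871 CPM in KO, and all 4 day 5 libraries (6640 to 7872 CPM) lay below all 4 day 0 libraries (8744 to 9738 CPM). In a bulk library, fewer cells of a type and less RNA per cell cannot be told apart. CPM are relative to the counts of each library, so a lower value need not mean less Gimap RNA per cell.

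**Figure D1:**
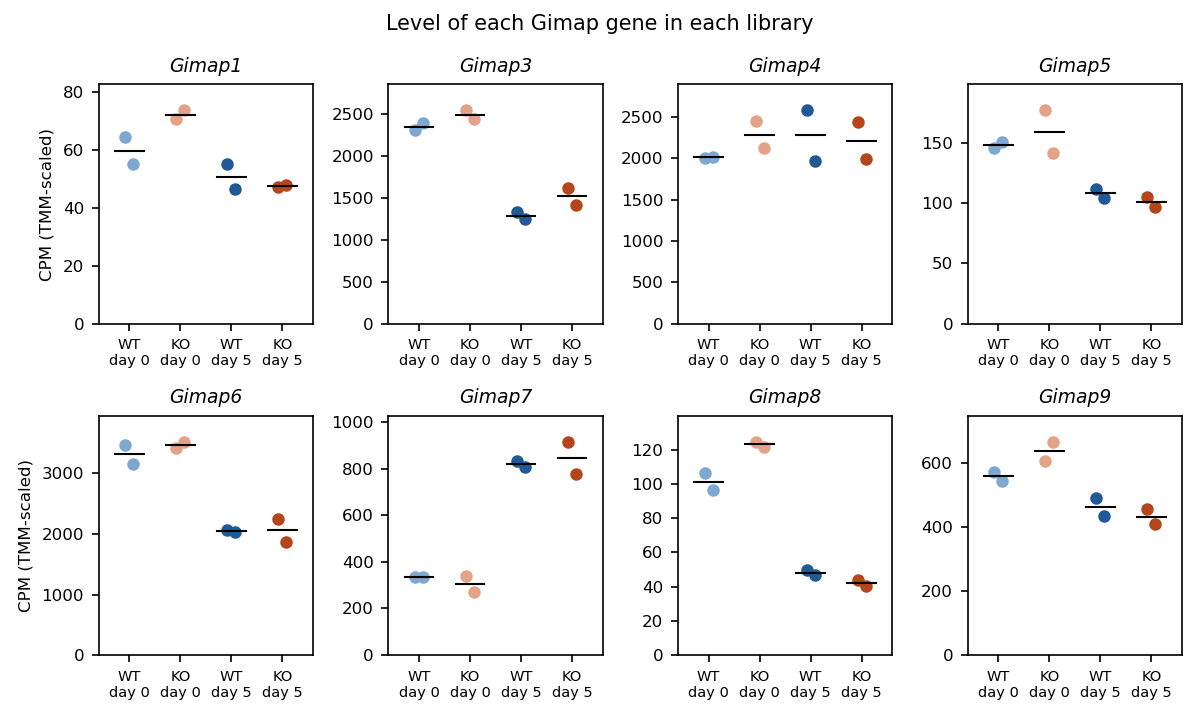
TMM-scaled CPM of each Gimap gene (vertical axis from 0, own scale per panel) in the 2 libraries of each group; points are libraries and lines are group means. Gimap7 lay at 272 to 339 CPM in the 4 day 0 libraries and at 777 to 916 CPM in the 4 day 5 libraries, while Gimap8, Gimap3, Gimap6, Gimap5 and Gimap9 were lower in every day 5 library than in any day 0 library.

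Culture moved the members in different directions. In WT, Gimap7 rose while Gimap8, Gimap3, Gimap6 and Gimap5 fell, which makes 5 of 8 members called at a false discovery rate (FDR) under 0.05 (quasi-likelihood F test in edgeR, Benjamini-Hochberg over 12597 genes). Of all genes tested, 48.3% were called in this comparison, 24.7% higher and 23.6% lower, so a call was common among genes at large. In KO, 7 of 8 members were called, the same gene higher and 6 lower, against 50.2% of all genes, 26.2% higher and 24.0% lower. The libraries of the 2 days did not overlap for 6 of 8 members in WT, against 73.7% of all genes, and for 7 of 8 in KO, against 77.9%. Scaling by library totals in place of TMM moved the median over all genes (log2 fold change) from -0.04 to -0.17 in WT and from -0.05 to -0.23 in KO and changed the split of all genes in KO from 3296 higher and 3029 lower to 2755 higher and 3936 lower. The median over the 8 members was -0.37 in WT and -0.64 in KO.

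Gimap7, whose product is a catalytically active member of the family, was the only member that rose. It had 334 and 337 CPM in WT and 339 and 272 CPM in KO at day 0, and 832 and 808 CPM in WT and 916 and 777 CPM in KO at day 5. Every day 5 library was above every day 0 library, with no overlap. The increase was 2.44-fold in WT (1.29 on the log2 scale, SE 0.13, FDR 6.44e-06 in edgeR) and 2.76-fold in KO (1.47, SE 0.13, FDR 1.80e-06 in edgeR). Among all genes by mean CPM, Gimap7 moved from rank 494 to 172 in WT and from 535 to 161 in KO.

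Gimap8, the member with 3 P-loops, fell the most. It had 106 and 96.4 CPM in WT and 125 and 122 CPM in KO at day 0, and 49.6 and 46.9 CPM in WT and 44.1 and 40.6 CPM in KO at day 5. The days did not overlap in either genotype. The day 5 level was 0.475 times the day 0 level in WT (log2 fold change -1.07, SE 0.14) and 0.343 times in KO (-1.54, SE 0.14).

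Gimap3, the near-copy of Gimap5, and Gimap6, the partner of GABARAPL2, fell by similar amounts. Gimap3 had 2306 and 2391 CPM in WT and 2549 and 2437 CPM in KO at day 0, and 1329 and 1243 CPM in WT and 1621 and 1415 CPM in KO at day 5. Gimap6 had 3471 and 3158 CPM in WT and 3422 and 3527 CPM in KO at day 0, and 2070 and 2033 CPM in WT and 2250 and 1866 CPM in KO at day 5. Neither gene had a day 5 library within the range of its day 0 libraries. The log2 fold change of Gimap3 was -0.87 (SE 0.11) in WT and -0.72 (SE 0.11) in KO, and that of Gimap6 was -0.69 (SE 0.11) in WT and -0.76 (SE 0.11) in KO.

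Gimap5, the member whose loss causes lymphopenia, was far less abundant than its paralogue. It had 146 and 150 CPM in WT and 177 and 141 CPM in KO at day 0, and 112 and 104 CPM in WT and 105 and 96.5 CPM in KO at day 5. All day 5 libraries were below all day 0 libraries. The log2 fold change was -0.46 (SE 0.14, FDR 0.0174, edgeR) in WT and -0.67 (SE 0.14) in KO. The WT call was lost in 3 of 8 fits that left out a library: the FDR (edgeR) was 0.0700 without WT day 0 replicate 1, 0.0952 without WT day 0 replicate 2 and 0.0964 without WT day 5 replicate 2, and over all alternatives it ranged from 0.00285 to 0.0964.

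Gimap9 and Gimap1 passed the test in KO and not in WT. Gimap9, the member most like Gimap7 in coding sequence, had 571 and 544 CPM in WT and 604 and 666 CPM in KO at day 0, and 491 and 434 CPM in WT and 454 and 408 CPM in KO at day 5. Its libraries of the 2 days did not overlap in either genotype, and its log2 fold change was -0.56 (SE 0.12) in KO and -0.27 (SE 0.12, FDR 0.0777, edgeR) in WT, where it was -0.15 without WT day 5 replicate 2. The WT value passed the threshold without WT day 5 replicate 1 (FDR 0.0452, edgeR) and under 3 other alternatives, with an FDR between 0.000416 and 0.346 over all of them. Gimap1, needed by mature lymphocytes, had 64.3 and 54.9 CPM in WT and 70.5 and 73.6 CPM in KO at day 0, and 55.1 and 46.4 CPM in WT and 47.2 and 47.8 CPM in KO at day 5. In WT the highest day 5 library overlapped the lowest of day 0. The log2 fold change was -0.60 (SE 0.16, FDR 0.00671, edgeR) in KO and -0.23 (SE 0.16, FDR 0.252) in WT, where it was -0.11 without WT day 0 replicate 1 and -0.085 without WT day 5 replicate 2. The KO call was lost without KO day 5 replicate 1 (FDR 0.0600, edgeR) or replicate 2 (0.0522), within a range of 0.00100 to 0.0600 over the alternatives. The exons of Gimap1 overlap the antisense gene Gimap1os and the read-through gene Gm28053 over 36.0% of their length, so reads there may have been set aside or counted for another gene. The difference between genotypes in either response is tested below and did not pass.

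Gimap4, linked to T-cell death, did not pass the test in either genotype. It had 2009 and 2012 CPM in WT and 2450 and 2123 CPM in KO at day 0, and 2583 and 1971 CPM in WT and 2434 and 1988 CPM in KO at day 5. The libraries of the 2 days overlapped in both genotypes. The log2 fold change was 0.18 (95% interval -0.13 to 0.49) in WT and -0.05 (-0.36 to 0.26) in KO. Without WT day 5 replicate 2 the WT value was 0.39 and passed the threshold (FDR 0.0299, edgeR; range over the alternatives 0.0299 to 0.972), and a correction for GC content and exon length (an offset per library) turned it to -0.22, so no direction is given for this gene.

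**Figure D2:**
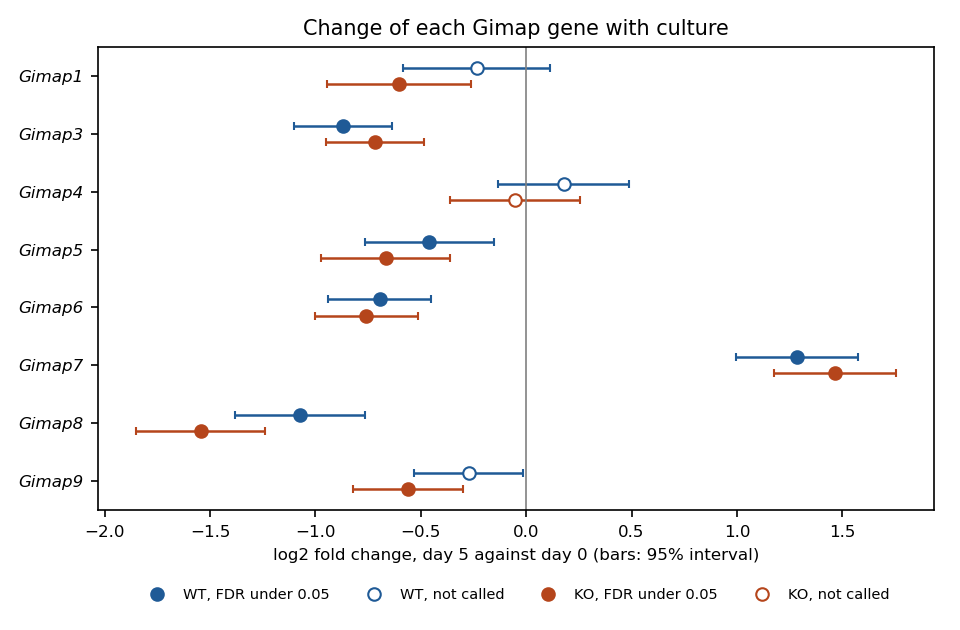
Log2 fold change of each Gimap gene, day 5 against day 0 (horizontal axis), in WT and in KO; points are edgeR estimates from 2 libraries per group, bars are 95% intervals and filled points have an FDR under 0.05. Gimap7 lies at 1.29 and 1.47, Gimap4 lies about 0, and the other 6 lie between -0.23 and -1.54.

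The direction did not follow the order along the chromosome. Gimap7, which rose, lies between Gimap6 (-0.69 in WT, -0.76 in KO) and Gimap1 (-0.23 in WT, -0.60 in KO). The members with the largest falls in WT, Gimap8 and Gimap3, sit at opposite ends of the cluster. In KO Gimap8 (-1.54) fell the most, followed by Gimap6 (-0.76), which lies within the cluster, and Gimap3 (-0.72).

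**Figure D3:**
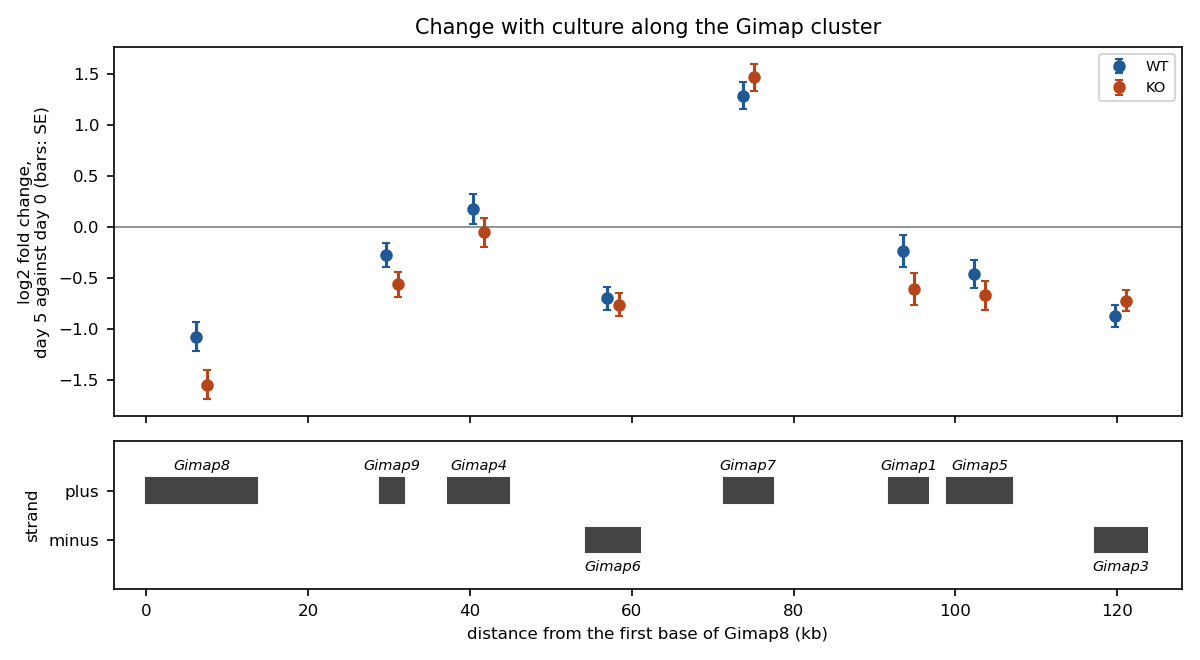
Upper panel, log2 fold change of each Gimap gene at its place in the cluster, day 5 against day 0, in WT and in KO (bars are standard errors, 2 libraries per group). Lower panel, the extent and strand of each gene, by distance in kb from the first base of Gimap8; Gimap7 at 1.29 in WT stands between neighbours at -0.69 and -0.23.

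Genes around the cluster moved in both directions too. Of the 41 other listed genes that start within 300 kb of it, 18 were tested, and 5 rose and 3 fell in WT and 5 rose and 4 fell in KO (median log2 fold change 0.13 and 0.28, against -0.04 and -0.05 over all genes), where 48.3% of all genes tested were called in WT and 50.2% in KO. Gimap1os, which overlaps Gimap1 on the other strand, had a mean of 119 CPM at day 0 and 102 CPM at day 5 in WT, and 147 and 102 CPM in KO (log2 fold change -0.54, SE 0.14, FDR 0.00656, edgeR, and 0.0694 without KO day 5 replicate 2; range over the alternatives 0.000482 to 0.0694). Whether the counting used strand is not given in the sources used here, and without strand the reads over the bases that Gimap1 and Gimap1os share cannot be told apart. Gm28053, a read-through model that joins Gimap7, Gimap1 and Gimap5 exons, rose in WT from 6.23 to 12.0 CPM (log2 fold change 0.96, SE 0.32), a call lost under 5 of 18 alternatives, among them each WT day 0 library left out and WT day 5 replicate 1 left out (FDR 0.124, 0.0553 and 0.172, edgeR; over all alternatives from 0.0130 to 0.202). Tmem176a, a membrane protein gene beside the cluster, rose from 5.57 to 19.7 CPM in WT and from 2.47 to 24.0 CPM in KO (log2 fold change 1.81, SE 0.26, and 3.26, SE 0.27), and its neighbour Tmem176b rose by 1.87 (SE 0.32) and 2.77 (SE 0.31). Krba1 fell, with log2 fold changes of -1.52 (SE 0.34) in WT and -1.68 (SE 0.32) in KO.

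To compare the members with each other, CPM was divided by the kilobases of exon of each gene. Per kilobase, Gimap4 was the most abundant member in every group, at 1094 ± 1.19 (SD, n = 2) in WT and 1245 ± 126 in KO at day 0 and 1239 ± 235 and 1204 ± 172 at day 5. Gimap6 and Gimap3 followed, and their libraries overlapped at day 0 in both genotypes and at day 5 in KO, so these neighbours in the order did not differ beyond their spread. At day 0 the order went on with Gimap9, Gimap7, Gimap5, Gimap8 and Gimap1, from 340 ± 11.8 down to 19.4 ± 2.15 in WT. At day 5 Gimap7 stood above Gimap9 (353 ± 7.41 against 282 ± 24.6 in WT), and Gimap1 above Gimap8 (16.5 ± 2.0 against 13.0 ± 0.524). All other neighbours in the order were without overlap between their libraries. With the longest transcript, or with unshared exon bases, as the length, Gimap4 had the highest mean in all groups (with the longest transcript its day 0 libraries overlapped those of Gimap3 in both genotypes), Gimap7 kept the fifth place at day 0 and held a place from 2 to 4 at day 5, and the order of Gimap1 and Gimap8 at day 0 changed.

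As a share of the family per kilobase, Gimap7 went from 4.10% ± 0.0820 (SD, n = 2) to 11.7% ± 0.931 in WT and from 3.43% ± 0.416 to 11.9% ± 0.0655 in KO. Gimap4 went from 31.1% to 40.9% in WT and from 32.6% to 39.3% in KO. Gimap3 went from 25.9% to 16.6% in WT and from 25.3% to 19.3% in KO, and Gimap6 from 26.9% to 19.5% and from 26.0% to 19.2%. Gimap5, Gimap8 and Gimap1 each held between 0.375% and 1.01% in every group. These shares depend on the length used: with the longest transcript, Gimap7 went from 6.53% to 18.1% in WT and from 5.49% to 18.3% in KO, Gimap4 from 27.5% to 35.1% and from 28.9% to 33.6%, and Gimap5 held up to 1.57%.

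**Figure D4:**
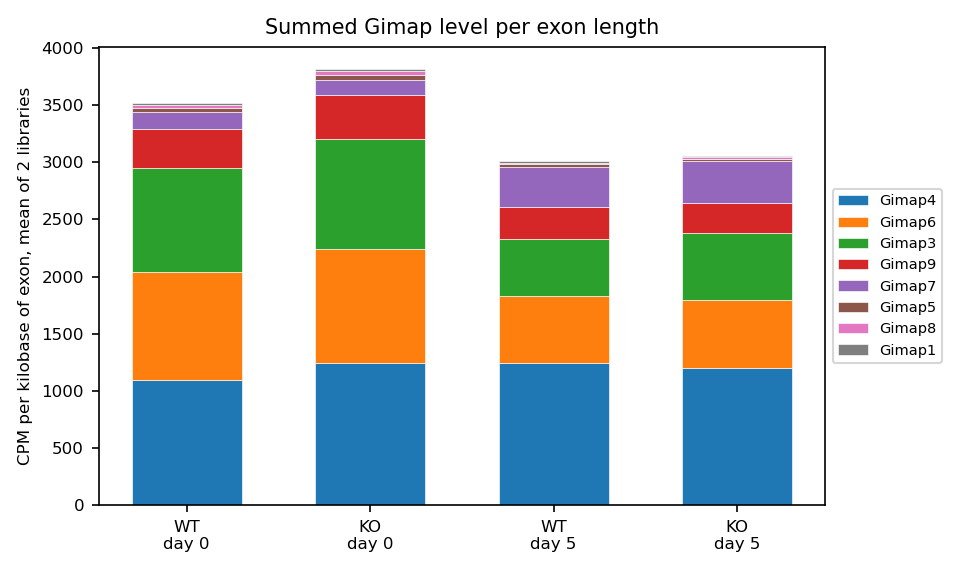
CPM per kilobase of exon (vertical axis, from 0), mean of 2 libraries per group, stacked over the 8 Gimap genes. The Gimap7 part grows from 144 to 353 in WT and from 131 to 364 in KO, while the Gimap3 part shrinks from 911 to 499 and from 967 to 589.

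Gimap3 and Gimap5 are paralogues that share part of their sequence, and their ratio was followed. The CPM of Gimap3 was 15.8 and 15.9 times that of Gimap5 in the WT libraries and 14.4 and 17.2 times in the KO libraries at day 0, and 11.9 and 11.9 times in WT and 15.4 and 14.7 times in KO at day 5. The mean log2 ratio was 3.74 in the 4 day 5 libraries and 3.98 in the 4 day 0 libraries, a difference of -0.24 (exact permutation test, two-sided, p = 0.0857, adjusted over 2 tests 0.171, where the smallest p the design allows is 0.0286). Between KO and WT it differed by 0.16 (exact permutation test, p = 0.314, adjusted 0.314). A lone difference could not have passed the threshold after adjustment over the 2 tests, so these values say nothing about whether the ratio was stable. In WT both day 5 ratios lay below both day 0 ratios, while in KO the ratios of the 2 days overlapped; that difference between genotypes was not tested.

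The second question was whether the libraries labelled KO differed from WT. No member was called at day 0, where 1.80% of all genes were, and none had an unadjusted p under 0.05 (edgeR), which 13.8% of all genes had. The log2 fold changes at day 0 ran from -0.13 (Gimap7) to 0.28 (Gimap8) and the FDR from 0.383 to 0.860, and the sign of Gimap5, Gimap6 and Gimap7 each turned in 1 of 18 alternatives. The 95% intervals of the 8 members lay between -0.42 and 0.61, so a difference above 1.53-fold is outside all of them. At day 5 no member was called, against 1.63% of all genes, and 1, Gimap3, had an unadjusted p under 0.05 (log2 fold change 0.24, SE 0.11, and 0.14 without KO day 5 replicate 1), which 14.1% of all genes had. The log2 fold changes ran from -0.19 (Gimap8) to 0.24, with signs that turned in 1 to 6 of 18 alternatives for Gimap1, Gimap4, Gimap6, Gimap7 and Gimap9, and the intervals lay between -0.51 and 0.47. DESeq2 called 0 members at either day as well. The WT and KO libraries did not overlap for 5 of 8 members at day 0, against 43.4% of all genes, and for 2 of 8 at day 5, against 45.7%.

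**Figure D5:**
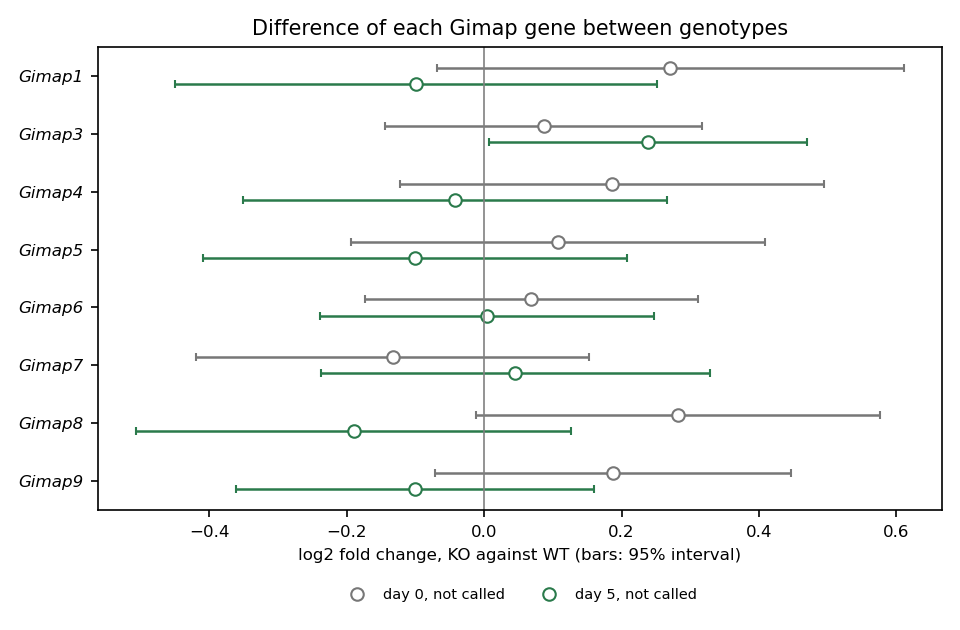
Log2 fold change of each Gimap gene, KO against WT (horizontal axis), at day 0 and at day 5; points are edgeR estimates from 2 libraries per group, bars are 95% intervals and open points have an FDR of 0.05 or more. All 16 points are open, between -0.19 and 0.28.

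The third question, whether the culture response differed between genotypes, was tested as an interaction, the log2 fold change with culture in KO minus that in WT. No member was called, against 0.159% of all genes, and the values ran from -0.47 to 0.18 (Gimap7, -0.017 without KO day 0 replicate 2). Gimap8 had -0.47 (SE 0.20, 95% interval -0.90 to -0.04, FDR 0.359, edgeR), the 1 member with an unadjusted p under 0.05, which 12.4% of all genes had. Gimap1 had -0.37 (SE 0.22) and Gimap9 -0.29 (SE 0.17), which were -0.23 and -0.19 without WT day 5 replicate 1, so their calls in KO and not in WT are not shown to be a difference between genotypes. DESeq2 called 0 members.

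Proteins that bind or act with GIMAP proteins were followed as a list of 13 genes, all tested. It held the GABARAP group, which attaches to autophagosome membranes, and BCL2 relatives that set the threshold of cell death. In WT 4 rose and 1 fell with culture, and in KO 5 rose and 2 fell, against 24.7% higher and 23.6% lower of all genes in WT and 26.2% and 24.0% in KO (median log2 fold change 0.33 and 0.32, against -0.04 and -0.05 over all genes). Gabarapl1 rose from 6.67 to 103 CPM in WT and from 8.83 to 98.6 CPM in KO (log2 fold change 3.94, SE 0.18, and 3.48, SE 0.17). Gabarapl2, whose product binds GIMAP6, and Gabarap were not called with culture in either genotype. Bcl2, which blocks cell death, rose from 405 to 1290 CPM in WT and from 262 to 1139 CPM in KO (1.67, SE 0.16, and 2.12, SE 0.16). Mcl1, another survival factor, fell from 198 to 61.3 CPM in WT and from 199 to 56.0 CPM in KO. Between genotypes 0 were called at day 0 by edgeR (1.80% of all genes), with 2 at an unadjusted p under 0.05 (13.8% of all genes) and 1 called by DESeq2, and 1 at day 5 (1.63% of all genes), Bcl2l1, the gene of BCL-XL, with 29.2 ± 3.23 CPM in WT and 59.6 ± 16.3 CPM in KO (SD, n = 2), a log2 fold change of 1.03 (SE 0.23; FDR 0.0401 in edgeR). That call was lost under 9 of 18 alternatives, with an FDR from 0.00188 to 0.497 over all of them, the highest without KO day 5 replicate 2; it was also lost without either WT library of either day and without KO day 5 replicate 1.

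Of 26 genes of the autophagy core, 25 were tested. In WT 1 rose and 9 fell with culture, and in KO 2 rose and 11 fell, against 24.7% higher and 23.6% lower of all genes in WT and 26.2% and 24.0% in KO. The medians were -0.34 and -0.42, against -0.04 and -0.05 over all genes. Atg14, a subunit of the lipid kinase complex of autophagy, fell from 70.9 to 19.4 CPM in WT and from 64.2 to 26.0 CPM in KO, and Rb1cc1, a scaffold of the ULK1 complex, from 56.8 to 25.2 CPM and from 66.1 to 24.5 CPM. Between genotypes edgeR called 0 of the 25 at either day, with 1 at each day at an unadjusted p under 0.05, and DESeq2 called 1 at day 0 and 0 at day 5. Of all genes, edgeR called 1.80% at day 0 and 1.63% at day 5, 13.8% and 14.1% had an unadjusted p under 0.05, and DESeq2 called 277 of 12393 and 319 of 11059. Of 17 genes of naive and resting T cells, all tested, 14 were called lower in WT and 16 in KO and none higher, against the same shares of all genes, with medians of -1.96 and -2.14. Il7r, the receptor of a survival cytokine, fell from 991 to 23.9 CPM in WT (log2 fold change -5.39, SE 0.19) and from 1368 to 52.2 CPM in KO (-4.72, SE 0.18), and S1pr1, which guides exit from lymphoid tissue, from 1253 to 174 CPM in WT (-2.85, SE 0.12). The difference between this list and the Gimap members was not tested.

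The genes most alike to the family were ranked by Pearson correlation of log2 CPM with the mean log2 CPM of the 8 members over the 8 libraries, among 7984 genes with a mean of at least 10 CPM. They were Synrg (r = 0.993), Recql (0.988), Zfp451 (0.988), Mier3 (0.988) and Zfp655 (0.982), and 119 genes reached 0.95. Within the family, Gimap7 moved against this mean and Gimap4 did not follow it, so genes alike to the mean run opposite to Gimap7. The libraries fall into 2 days, so these values carry mostly the difference between days and are a description. Synrg went from 32.7 to 19.3 CPM in WT and from 39.4 to 19.9 CPM in KO.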

How the data were processed

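RNA-seq counts were analysed for 8 libraries of mouse CD8+ T cells. The authors deposited 1 table per library, holding raw counts by gene symbol and the counter's summary lines. Per the labels, RNA was extracted with Trizol and a Direct-zol kit, libraries were made with an NEBNext Ultra RNA kit and reads of 50 bases were sequenced. The submitters' processing notes name HISAT2 2.1.0, HTSeq 0.11.1 and the build mm10 (GRCm38). The annotation and the strand setting are not given in the sources used here. Reads assigned to genes made up 21.2% to 24.5% of all records. The summary lines were left out of library sizes and tests.

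All 8 libraries entered 1 quasi-likelihood fit in edgeR 4.0.16 (R 4.3.3), with a mean per group and TMM factors, after filterByExpr at its default minimum count of 10. P-values were adjusted over the 12597 genes kept (FDR), and genes with FDR under 0.05 were called. The biological coefficient of variation was 14.95%. Intervals of log2 fold changes cover 95%, from the standard errors of the fit. The script was tested on simulated data. Exon lengths, overlaps and coding sequences came from GENCODE M21 (GRCm38) and promoters from RefSeq (GRCm38.p6). Coding sequences were aligned with Biopython 1.88. Alternatives covered normalization, filter, test, libraries in the fit, a replicate block and each library left out. A correction for GC content and exon length (an offset per library), thinning to equal depth and a length of unshared exon bases were added after seeing the data. The members and lists were chosen with earlier results of these data known. Named genes were all 8 members, up to 4 called genes with the largest change per list and comparison, genes within 300 kb of the cluster, the 5 genes most alike to the family, Satb1 and the cell markers, of which 1 is not reported here.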

Additional observations from a re-analysis of the deposited data

How the results depend on the processing

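Each member was refitted under 18 alternatives (17 for the interaction), and no call changed direction. Gimap7, Gimap8, Gimap3 and Gimap6 were called in both culture comparisons under all 18. The number of members called ranged from 4 to 6 of 8 in WT and from 6 to 7 in KO, and it was 0 between genotypes and in the interaction throughout. The median log2 fold change of the members with culture was -0.50 in WT and -0.82 in KO under library totals. Correcting for GC content and exon length by an offset gave -0.62 and -0.77, with 0.063 for KO against WT at day 5 (-0.071 without it) and -0.068 for the interaction (-0.22 without it). Without 1 library at a time the median ranged from -0.41 to -0.27 in WT with culture, from -0.166 to 0.034 for KO against WT at day 5 and from -0.34 to -0.10 for the interaction. Gimap9 in WT was called under library totals (FDR 0.00733, edgeR), equal depth (0.0378) and the GC and length offset (0.000416). The causes were not tested. The deviations of same-numbered libraries correlated across genes at 0.118 between the days in WT and 0.228 in KO, and at -0.0742 to 0.00438 for the other 4 pairs of groups. No source ties the numbers to animals, so the numbers were not taken as pairs. With the replicate number as a block, 5 members were called in WT and 7 in KO with culture and 0 elsewhere. Gimap1 and Gimap8 had the fewest reads, 193 to 824 and 195 to 1459 counts per library.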

Other observations

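Another family of GTPases, those induced by interferon, moved in both directions with culture. Of 17 such genes, all tested, 11 rose and 4 fell in WT and 7 rose and 5 fell in KO, against 24.7% higher and 23.6% lower of all genes in WT and 26.2% and 24.0% in KO. The median log2 fold changes were 0.71 and 0.31. Iigp1, which acts against vacuoles of intracellular parasites, went from 69.0 ± 17.4 CPM (SD, n = 2) to 610 ± 228 CPM in WT (log2 fold change 3.15, SE 0.49) and from 106 ± 84.7 to 382 ± 158 CPM in KO (1.83, SE 0.46), where the value was 3.07 without KO day 0 replicate 1 and 1.21 without KO day 0 replicate 2. Gbp3 rose from 57.7 to 201 CPM in WT and from 76.6 to 238 CPM in KO. Irgm1 was called higher in WT and lower in KO (log2 fold change over 18 alternatives 0.41 to 0.65 and -0.93 to -0.32). Those calls were lost under 4 and 2 of the 18. In the interaction edgeR called 0 of 17 genes (0.159% of all genes) and DESeq2 called 1 (139 of 7057 genes). Between genotypes edgeR and DESeq2 called 0 of 17 at day 0, with 4 at an unadjusted p under 0.05 (edgeR), against 1.80% of all genes called by edgeR and 13.8% at that p. At day 5 edgeR called 1, against 1.63% of all genes. It was Irgm1, with 240 ± 18.0 CPM in WT and 135 ± 25.5 CPM in KO (SD, n = 2), a log2 fold change of -0.83 (SE 0.19; adjusted p 0.0489 in edgeR), a call lost under 7 of 18 alternatives, among them each WT library and each KO day 5 library left out (adjusted p 0.475 without KO day 5 replicate 2; from 0.000185 to 0.475 over all alternatives, edgeR or DESeq2).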
